A study of Homo sapiens with 6 samples.

Results

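The core circadian clock genes were followed in the human fibrosarcoma line HT-1080 after exposure for 24 h to an IRAK4 inhibitor or to DMSO as the control. IRAK4 is a kinase of Toll-like receptor signalling. They are 10 genes chosen by name (NR1D1, NR1D2, PER1, PER2, DBP, TEF, CRY1, ARNTL, CLOCK and NPAS2) out of 20683 genes in the deposited tables, and all 10 were found and passed the filter on low counts. The inhibitor dishes received 5 mM of the inhibitor with the code name SLV-8472-01, a concentration given as labelled and not checked here, and the control dishes received 0.1% DMSO. No DMSO content was recorded here for the inhibitor dishes. All dishes held the same line in serum-containing medium, and each group had 3 libraries that the series describes as biological replicates. The samples represent 1 cell line at a single time, and no sample was taken at another hour of the day, so a difference in level and a difference in phase of a rhythm cannot be told apart. The 10 genes were chosen with results of this same comparison known. Their values are therefore given as a description. Where the calls of the fit over all genes are counted for them, the share of all genes called stands beside the count and nothing is read from it.

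The circadian clock is a loop of transcription factors that runs in nearly every cell. CLOCK or its paralog NPAS2 pairs with ARNTL (BMAL1) and binds E-box sequences in front of the PER, CRY, NR1D, DBP and TEF genes, and the PER and CRY proteins then enter the nucleus and inhibit that activator. The NR1D receptors (REV-ERB alpha and beta) repress ARNTL, NPAS2 and CLOCK through ROR response elements, while DBP and TEF are PAR bZIP factors that activate genes holding a D-box. In cultured fibroblast-like cells this loop is known to be set in phase by serum, glucocorticoids and cAMP signals.

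RNA was read with an amplicon panel, in which each gene is counted through 1 short PCR product, so counts are compared between libraries and not between genes. The 6 libraries held 9162281 to 13184553 counts. Of 8 mesenchymal markers 7 were counted in every library, with summed counts of 91663 to 111651 in the inhibitor libraries and 73747 to 135658 in the DMSO libraries, while THY1 had a single count in all. The 4 blood markers summed to at most 3 counts in an inhibitor library and 2 in a DMSO library. The 4 epithelial markers summed to 16 to 25 counts with inhibitor and 8 to 17 with DMSO, and the 4 endothelial markers to 17 to 38 with inhibitor and 17 to 18 with DMSO. CDH1, PTPRC, CD3E and VWF were at 0 in all 6. DMSO 3 stood apart from its group: the median absolute log2 difference over 9246 genes was 0.32 to DMSO 1 and 0.25 to DMSO 2, against 0.12 to 0.13 between inhibitor libraries and 0.16 between DMSO 1 and DMSO 2.

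Of the 6 E-box output genes, NR1D1 and PER1 had the largest differences, both lower in the inhibitor libraries. Of the activators, ARNTL and CLOCK were at or slightly above their DMSO levels, and NPAS2 was lower. The inhibitor values of NR1D2, PER2 and DBP also lay under the DMSO values without being past the threshold of the fit, and those of TEF overlapped. All 6 output genes had a negative log2 fold change, with a median of -0.62. The median of the 3 activators was 0.11, the value of ARNTL, with CLOCK at 0.23 and NPAS2 at -0.47. The median over all 11216 tested genes was -0.0044, and 50.6% of them were negative. In 6 of the 10 clock genes the 3 inhibitor values all lay under the 3 DMSO values, and in 1 gene they all lay above. Over all tested genes 11.8% lay fully lower and 13.7% fully higher. In bulk RNA, fewer expressing cells and less RNA per cell cannot be told apart. By edgeR's quasi-likelihood test at an adjusted p under 0.05, 3 of the 10 were past the threshold and all 3 were lower (NR1D1, PER1 and NPAS2), against 3.87% of all genes in either direction and 1.92% lower.

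**Figure D1:**
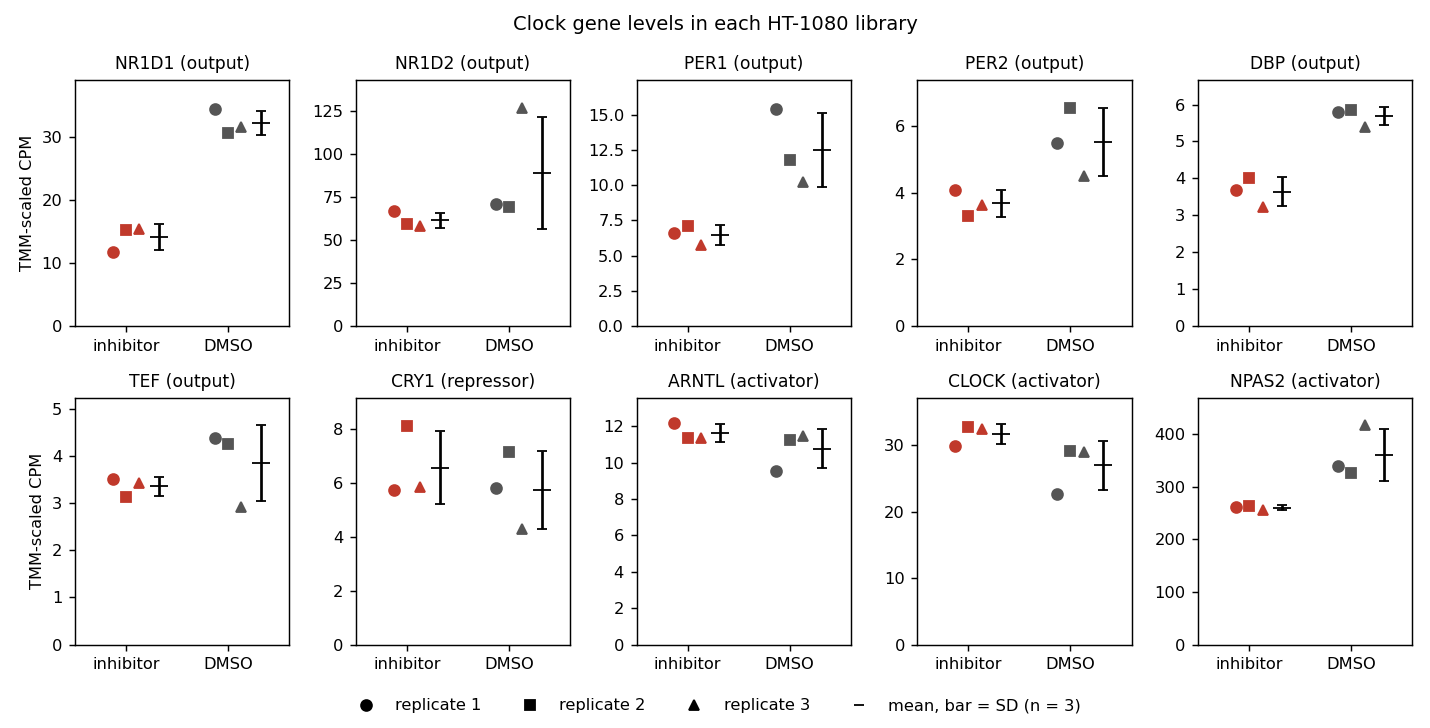
Levels of the 10 clock genes in TMM-scaled CPM (library-scaled counts, y axis from 0) in the 3 inhibitor and the 3 DMSO libraries; markers are replicates 1 to 3 and the bar is the mean with its SD. NR1D1, PER1 and DBP show a gap between the groups, ARNTL and CRY1 overlap, and DMSO 3 is the high DMSO value for NR1D2 and NPAS2.

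The sequences around the starts of these genes were searched for letter matches to known motifs. The windows hold 250 bases before and 50 after each RefSeq start in GRCh38.p14, and 14 such starts were listed for the 10 genes (ARNTL is listed there as BMAL1). Both strands were searched for the E-box CACGTG, its variant CACGTT, the D-box TTANGTAA, the cAMP response element TGACGTCA and the ROR response element. The E-box occurred in 3 of 6 output genes (PER1, NR1D2 and TEF) and in none of the 3 activators. E-box or variant occurred in 5 of 6 output genes, in CRY1 and in CLOCK as the single activator. Those counts are by gene, with a match at any listed start. By start window, 4 of the 14 held the E-box and 8 held E-box or variant. Of 35114 start windows in the table, 7.26% held the E-box, 5.34% the variant, 12.2% either one, 2.18% the D-box, 1.85% the cAMP response element and 0.316% the ROR response element. Matches are letters in a window and were not measured as bound sites, and a gene with none here, such as DBP, may hold elements elsewhere. In the lines below, 5′ to 3′ on the gene's strand, capitals mark every match; the PER1 and NR1D1 lines run over the whole 250 bases up to the start because these genes had the largest differences.
NR1D1, variant E-box (chr17:40100590-40100839, minus strand): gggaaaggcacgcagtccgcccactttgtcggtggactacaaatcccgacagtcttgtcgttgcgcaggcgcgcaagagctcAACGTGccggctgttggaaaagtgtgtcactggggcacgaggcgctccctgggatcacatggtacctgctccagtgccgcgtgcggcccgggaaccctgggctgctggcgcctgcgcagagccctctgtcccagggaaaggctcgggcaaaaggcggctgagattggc
PER1, E-box (chr17:8152405-8152654, minus strand): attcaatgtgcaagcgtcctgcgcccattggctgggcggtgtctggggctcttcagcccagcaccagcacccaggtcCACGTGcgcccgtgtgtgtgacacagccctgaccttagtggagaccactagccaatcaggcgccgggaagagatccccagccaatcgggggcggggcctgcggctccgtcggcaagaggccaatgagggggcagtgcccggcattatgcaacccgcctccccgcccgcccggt
NR1D2, second listed start, D-box, E-box, ROR response element and E-box (chr3:23945916-23946031, plus strand): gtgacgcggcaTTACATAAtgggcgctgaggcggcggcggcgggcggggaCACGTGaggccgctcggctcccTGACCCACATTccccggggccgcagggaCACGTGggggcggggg
PER2, variant E-box (chr2:238288772-238288837, minus strand): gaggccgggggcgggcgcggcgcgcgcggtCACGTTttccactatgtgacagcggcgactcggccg
PER2, D-box across the start (chr2:238288596-238288625, minus strand): ccccgctgcggcTTACGTAAccgccgccgg
TEF, first listed start, E-box (chr22:41367230-41367295, plus strand): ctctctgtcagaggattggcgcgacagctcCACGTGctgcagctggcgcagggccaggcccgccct
TEF, second listed start, E-box (chr22:41381719-41381784, plus strand): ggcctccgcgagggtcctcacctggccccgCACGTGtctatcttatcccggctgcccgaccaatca
CRY1, variant E-box (chr12:107093603-107093668, minus strand): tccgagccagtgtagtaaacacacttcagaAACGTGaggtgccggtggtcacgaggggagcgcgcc
CLOCK, second listed start, ROR response element and variant E-box (chr4:55546097-55546162, minus strand): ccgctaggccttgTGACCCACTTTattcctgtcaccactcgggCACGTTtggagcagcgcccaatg
ARNTL, first listed start, ROR response element (chr11:13277805-13277834, plus strand): agggaaggcagAAAGTAGGTCAgggacgga

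**Figure D2:**
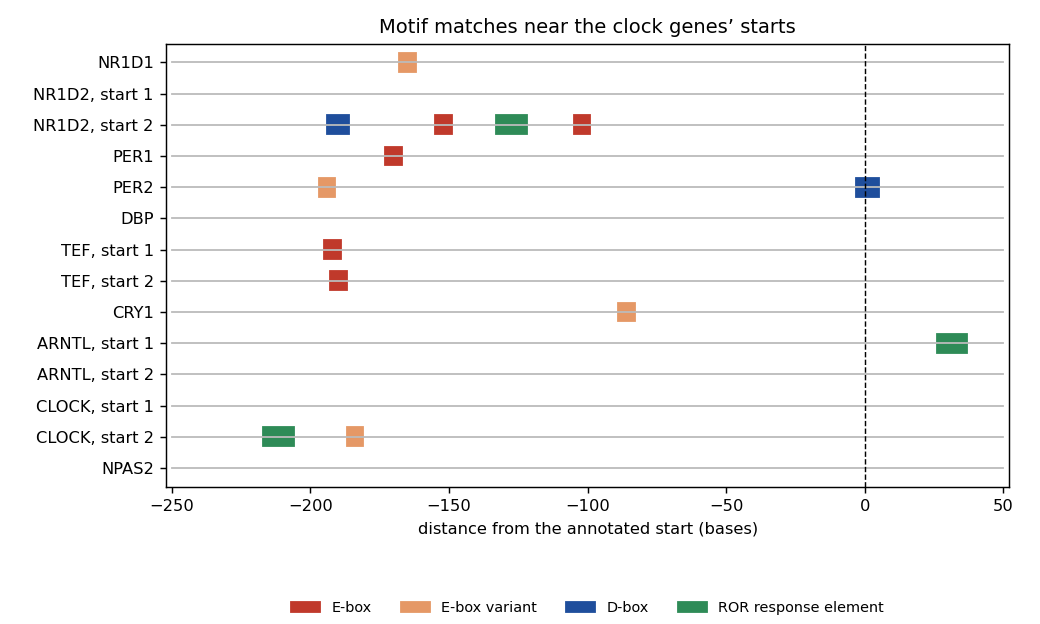
Motif matches in the 14 listed start windows of the 10 clock genes, drawn by distance from the annotated start in bases (dashed line at the start); colours give the motif and each block is as long as its match. E-boxes or variants sit before at least 1 listed start of every output gene except DBP, and ROR response elements near NR1D2, CLOCK and ARNTL.

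NR1D1, the gene of REV-ERB alpha and the carrier of a variant E-box in the line above, showed the largest difference. It had 11.7, 15.2 and 15.3 CPM in inhibitor 1 to 3, against 34.3, 30.6 and 31.5 CPM in DMSO 1 to 3. The groups did not overlap. The means were 14.1 ± 2.07 CPM with inhibitor and 32.2 ± 1.95 CPM with DMSO (SD, n = 3 each), a log2 fold change of -1.20 (SE 0.15), or 43.7% of the DMSO level. It rested on 461 counts with inhibitor and 1121 with DMSO, summed over libraries. Its paralog NR1D2 (REV-ERB beta), whose second start is preceded by a pair of E-boxes, had 66.6, 59.3 and 58.1 CPM in the inhibitor libraries and 70.9, 69.1 and 127 CPM in the DMSO libraries. Most of that gap came with DMSO 3: the log2 fold change was -0.53 (SE 0.20) with all libraries and -0.20 (SE 0.11) without DMSO 3.

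PER1 and PER2 encode the period proteins, which with the cryptochromes inhibit the activator. PER1 is also known as an early responder to cAMP and glucocorticoid signals. PER1, with its E-box in the line above, had 6.62, 7.13 and 5.72 CPM in inhibitor 1 to 3, against 15.4, 11.8 and 10.2 CPM in DMSO 1 to 3. All inhibitor values lay under all DMSO values, and DMSO 1 was the highest. The means were 6.49 ± 0.714 CPM with inhibitor and 12.5 ± 2.65 CPM with DMSO (SD, n = 3 each), a log2 fold change of -0.95 (SE 0.19), or 51.9% of the DMSO level. PER1 rested on 216 summed counts with inhibitor and 443 with DMSO. PER2 had 4.08, 3.30 and 3.64 CPM in the inhibitor libraries and 5.47, 6.55 and 4.50 CPM in the DMSO libraries. These groups did not overlap either, but inhibitor 1 and DMSO 3 were close, and the PER2 log2 fold change was -0.59 (SE 0.21) on 122 counts with inhibitor and 196 with DMSO. It was past the threshold without DMSO 3, at -0.72, when 21.9% of all genes were, and under no other single omission. Without DMSO 2 it was at -0.45. The count ratio of PER1 to PER2 within a library was 1.78 ± 0.328 with inhibitor and 2.30 ± 0.506 with DMSO, and its values overlapped.

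DBP and TEF encode PAR bZIP factors, transcription factors driven by the clock that act on D-boxes. DBP had 3.68, 4.01 and 3.22 CPM in inhibitor 1 to 3, against 5.79, 5.86 and 5.40 CPM in DMSO 1 to 3. The DMSO values lay close together, all above the inhibitor values. The log2 fold change of DBP was -0.64 (SE 0.20), or 64.1% of the DMSO level, from 121 counts with inhibitor and 199 with DMSO. It was past the threshold without DMSO 3, at -0.69, when 21.9% of all genes were, and under no other single omission. TEF had 3.51, 3.12 and 3.43 CPM with inhibitor and 4.38, 4.26 and 2.93 CPM with DMSO. It was the single output gene whose groups overlapped, since DMSO 3 lay under every inhibitor library, and its log2 fold change was -0.22 (SE 0.23), or -0.38 without DMSO 3, -0.14 without DMSO 1 and -0.15 without DMSO 2. HLF, the other PAR bZIP gene, was close to absent from the tables, with 1 count in all inhibitor and 3 in all DMSO libraries, which is too few to compare.

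CRY1 encodes a cryptochrome, the strongest repressor of the loop, and is known to peak later than the PER genes. It had 5.72, 8.11 and 5.82 CPM in inhibitor 1 to 3, against 5.79, 7.15 and 4.28 CPM in DMSO 1 to 3. Replicate 2 was the highest in each group and the groups overlapped. Its log2 fold change was 0.17 (SE 0.22), and it was -0.01 without inhibitor 2, 0.36 without DMSO 2 and 0.0031 without DMSO 3. No direction can be given for CRY1.

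The activators did not share 1 direction. ARNTL, the obligate partner of CLOCK and NPAS2, had 12.2, 11.3 and 11.3 CPM in inhibitor 1 to 3, against 9.54, 11.3 and 11.5 CPM in DMSO 1 to 3. The groups overlapped, DMSO 1 was the low value, and the log2 fold change was 0.11 (SE 0.16), or 0.02 without DMSO 1. CLOCK had 29.98, 32.7 and 32.5 CPM with inhibitor and 22.8, 29.2 and 29.04 CPM with DMSO. The inhibitor values of CLOCK all lay above the DMSO values, by less than 1 CPM at the nearest pair, and the log2 fold change was 0.23 (SE 0.14), or 0.11 without DMSO 1.

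NPAS2, the paralog that can replace CLOCK, was lower. It had 262, 263 and 255 CPM in inhibitor 1 to 3, against 339.5, 325 and 418 CPM in DMSO 1 to 3. The inhibitor libraries lay within 9 CPM of each other, and DMSO 3 was the highest of all. The means were 259.9 ± 4.44 CPM with inhibitor and 361 ± 49.7 CPM with DMSO (SD, n = 3 each), a log2 fold change of -0.47 (SE 0.12), or -0.37 (SE 0.10) without DMSO 3. NPAS2 was also the best counted of the 10 genes, with 8605 summed counts with inhibitor and 12323 with DMSO. No match to any of the motifs lay in its window.

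Ratios of counts within a library do not depend on how libraries are scaled. The ratio of NR1D1 to ARNTL was 0.960, 1.35 and 1.35 in inhibitor 1 to 3, against 3.60, 2.72 and 2.75 in DMSO 1 to 3. The groups were well apart, with means of 1.22 ± 0.224 with inhibitor and 3.02 ± 0.501 with DMSO (SD, n = 3 each). The ratio of PER1 to ARNTL was 0.544, 0.630 and 0.505 in the inhibitor libraries and 1.61, 1.05 and 0.892 in the DMSO libraries. Against ARNTL, DBP averaged 0.314 ± 0.0364 with inhibitor and 0.532 ± 0.0688 with DMSO, and PER2 averaged 0.316 ± 0.0226 with inhibitor and 0.516 ± 0.107 with DMSO (SD, n = 3 each). Each of NR1D1, NR1D2, PER1, PER2 and DBP had all 3 inhibitor ratios to ARNTL under all 3 DMSO ratios, and TEF overlapped. The same genes were apart in their levels, and ARNTL itself overlapped, so the ratios are no separate evidence. In levels, 11.8% of all tested genes lay fully lower. The share of other genes whose ratio to ARNTL lay fully lower was not computed. The absolute size of a ratio also carries the efficiency of its amplicons, so it is compared between libraries alone.

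The ratio of NPAS2 to CLOCK was 8.72, 8.05 and 7.85 in inhibitor 1 to 3, against 14.9, 11.1 and 14.4 in DMSO 1 to 3. Every inhibitor library had a lower ratio than every DMSO library, with NPAS2 lower and CLOCK slightly higher. The ratio of ARNTL to its paralog ARNTL2 was 0.140 ± 0.0159 with inhibitor and 0.139 ± 0.0217 with DMSO (SD, n = 3 each), with overlapping values.

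**Figure D3:**
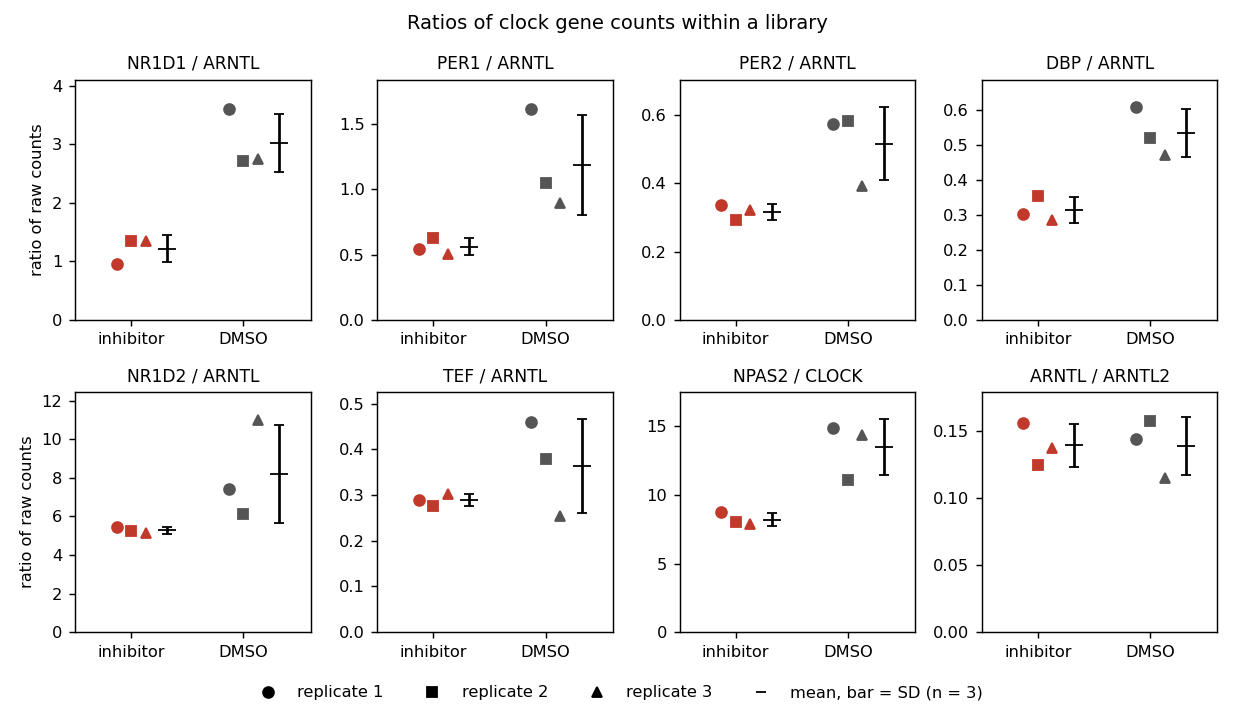
Ratios of raw counts between clock genes within each library (y axis from 0), for the 3 inhibitor and the 3 DMSO libraries; markers are replicates and the bar is the mean with its SD. The NR1D1 to ARNTL ratio is 0.960 to 1.35 with inhibitor and 2.72 to 3.60 with DMSO, while ARNTL to ARNTL2 overlaps.

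Leaving out single libraries changed how many of the clock genes were past the threshold. NR1D1 was past it under every one of the 6 omissions, with log2 fold changes from -1.26 to -1.08. Without any 1 of the inhibitor libraries it was the single gene of the 10, while PER1 stood at -0.96, -1.02 and -0.87 and NPAS2 at -0.48, -0.48 and -0.46 without inhibitor 1, 2 and 3. The share of all genes past it was then 1.1%, 0.87% and 1.32%, against 3.87% with all libraries. NPAS2 was also not past it without DMSO 2, at -0.54, when 1.63% of all genes were. Without DMSO 3 the count was 5 of 10, all lower, with PER2 at -0.72 and DBP at -0.69 added, against 21.9% of all genes in either direction and 11.1% lower. The log2 fold changes of the 6 output genes were negative under every omission. With library totals alone the median of all genes was 0.06 on the log2 scale, and the direction of every clock gene except CRY1 held under that and each other alternative.

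**Figure D4:**
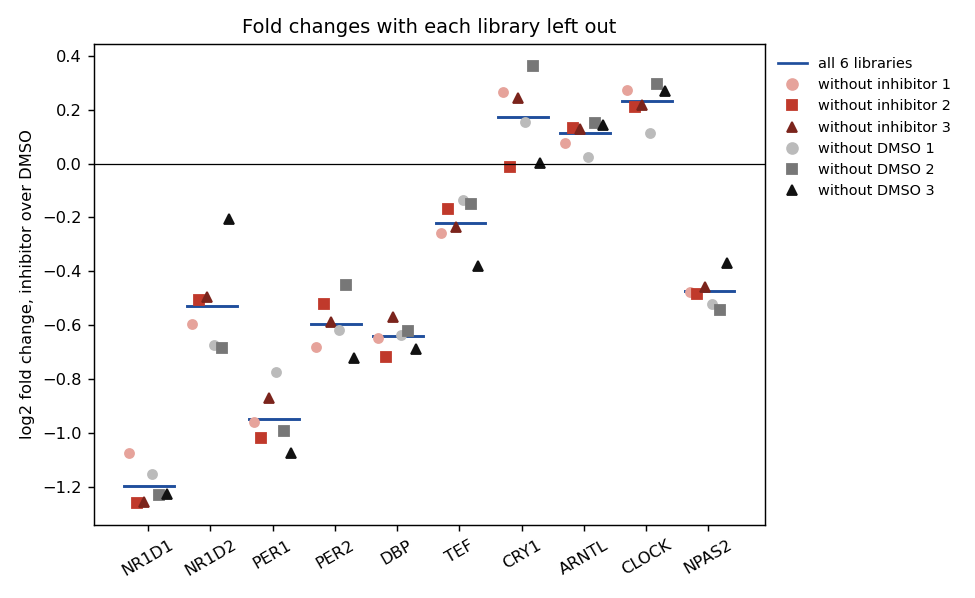
Log2 fold change (inhibitor over DMSO) of each clock gene with all 6 libraries (blue line) and with 1 library left out at a time (markers). The 6 output genes and NPAS2 stay under 0, ARNTL and CLOCK above 0, NR1D2 moves to -0.20 without DMSO 3, and CRY1 lies on either side of 0.

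Around the core loop, 41 further clock network genes were listed, of which 40 were in the tables and 35 were tested. They too were listed with earlier results of these data known, so their values are given as a description. By edgeR's quasi-likelihood test adjusted over all 11216 genes, 2 fell and none rose, against 1.92% lower and 1.95% higher of all genes, and 6 of the 35, or 17.1%, had an unadjusted p under 0.05, against 19.5% of all genes. Their median log2 fold change was -0.02. Of the genes that fell, TSC22D3 (GILZ), a clock output that is also a classic glucocorticoid target, had 9.72, 11.3 and 9.05 CPM with inhibitor and 22.3, 19.2 and 30.4 CPM with DMSO, with -1.24 as the log2 fold change (SE 0.19, edgeR adjusted p = 0.00194). Its groups were well apart, and it passed under each of the 6 single omissions. Without DMSO 3, 9 of the 35 passed, 5 higher and 4 lower, against 10.8% of all genes higher and 11.1% lower. The count of 2 was 1 without inhibitor 2 and 1 without inhibitor 3.

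The paralogs of the core genes did not pass. PER3 had 15.9 ± 0.928 CPM with inhibitor and 14.96 ± 1.22 CPM with DMSO (SD, n = 3 each), or 0.09 in log2 terms (SE 0.15, adjusted p = 0.79 by edgeR), and its groups overlapped where those of PER1 and PER2 did not. CRY2 was at -0.11 (SE 0.16, adjusted p = 0.753) and ARNTL2 at 0.09 (SE 0.15, adjusted p = 0.814) in the same fit. Without DMSO 3, CRY2 was at -0.0068 and ARNTL2 at 0.27 (adjusted p = 0.0715), and without DMSO 1 ARNTL2 was at -0.03. Without DMSO 2, CRY2 was at -0.24 and ARNTL2 at 0.02, and without DMSO 1 PER3 was at 0.02. With all 6 libraries, none of the 3 tested repressors (BHLHE40, BHLHE41 and CIART), 8 kinases, 4 ubiquitin ligases, 4 corepressors and 6 coactivators passed. Kinases and ubiquitin ligases were among the network genes that passed without DMSO 3, when 21.9% of all genes did. With library quality weights, kinases, ubiquitin ligases and the corepressor NONO were among those that passed, against 23.2% of all genes. RORA, a receptor that competes with the NR1D proteins, had 1 count in all 6 libraries together, and its paralog RORB had 28 counts with inhibitor and 29 with DMSO.

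**Figure D5:**
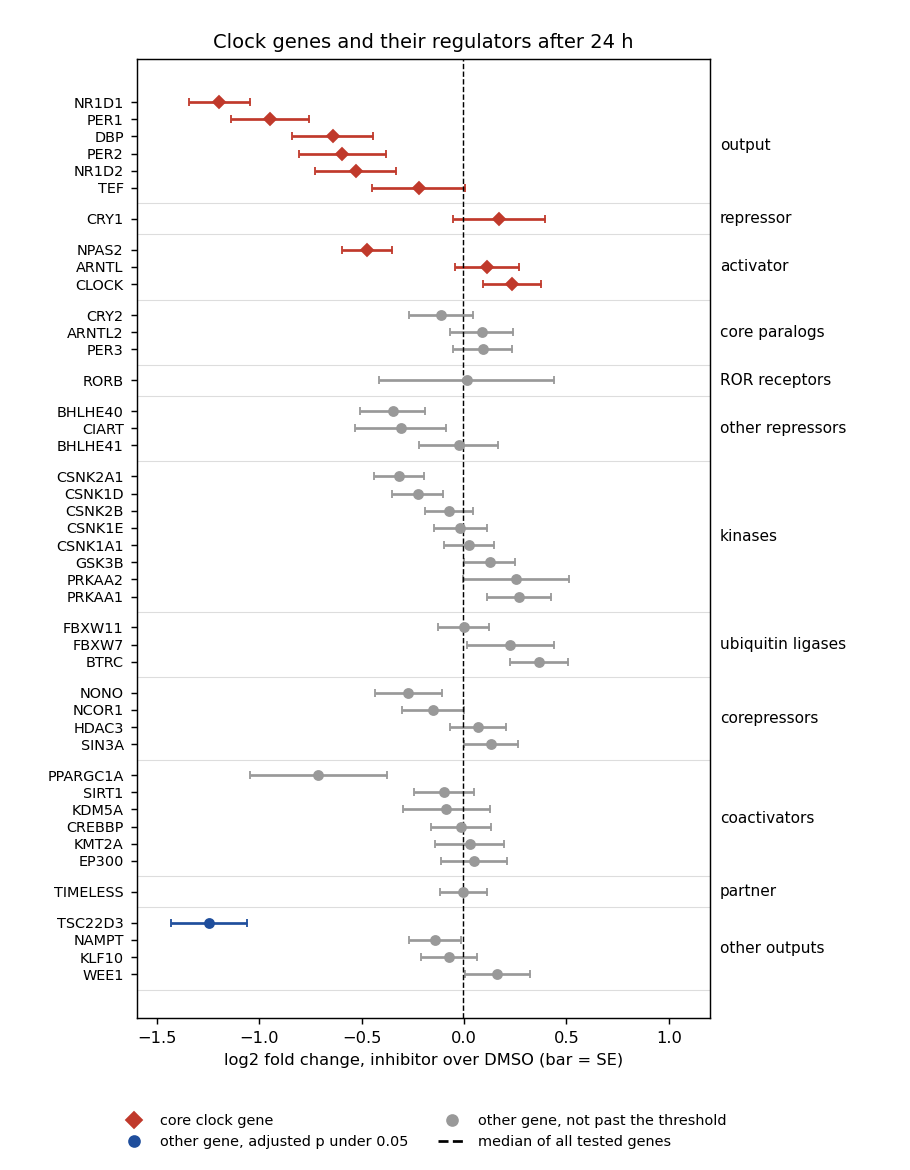
Log2 fold change of inhibitor over DMSO with its SE for the 10 core clock genes (diamonds) and most tested genes of the wider clock network (circles), grouped by role; the dashed line is the median of all tested genes. NR1D1 at -1.20 and TSC22D3 at -1.24 lie farthest left, and no kinase, ubiquitin ligase, corepressor or coactivator is past the threshold with all 6 libraries.

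Some clock genes share exon sequence with a gene on the opposite strand, and none of the sources used here states whether the counting used strand. In GENCODE 29 (GRCh38) NR1D1 shares 263 exon bases with THRA, a thyroid hormone receptor gene. THRA had 3.84, 3.83 and 4.06 CPM with inhibitor and 2.50, 0.533 and 2.70 CPM with DMSO, or 1.08 higher in log2 terms (SE 0.38, adjusted p = 0.132 by edgeR), so it lay opposite to NR1D1. THRA passed without DMSO 3 (adjusted p = 0.00529) and was at 0.59 without DMSO 2. DBP shares 661 exon bases with SPHK2, a sphingosine kinase gene, which was at -0.29 (SE 0.27, adjusted p = 0.609), and CLOCK shares 76 with TMEM165, which was at 0.53 (SE 0.17, adjusted p = 0.111). SPHK2 and TMEM165 were chosen from the annotation. NPAS2 shares 748 exon bases with AC016738.1, PER2 188 with AC012485.1, CRY1 94 with AC078929.1 and PER3 868 with UTS2. These opposite-strand genes have no counts of their own here. The part of such overlaps in the counts was not tested.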

How the data were processed

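Per the labels, RNA of 6 HT-1080 libraries was read with the Ion AmpliSeq Transcriptome panel and an Ion Torrent Proton sequencer. Each deposited file lists whole-number counts, not normalized, for 20683 gene symbols, and 15625 genes had a count in at least 1 library. HTSeq, DESeq2 1.20.0 and hg19 are named in the submitters' processing notes without a role, and no source used here names an aligner. Molecular identifiers are not mentioned, so counts of 1 amplicon may include copies of the same molecule.

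Here, edgeR 4.0.16 in R 4.3.3 was run with filterByExpr (minimum count 10, minimum total 15), TMM scaling, the quasi-likelihood test on the group, and Benjamini-Hochberg adjustment over 11216 genes with a threshold of 0.05. The SE is the absolute log2 fold change over the square root of F. CPM is TMM-scaled. DESeq2 1.42.0, limma 3.58.1 (voom, also with library quality weights), other scaling and filters, a replicate block and single omissions were alternatives. The fits of edgeR (with TMM or size factors, and with a replicate block), DESeq2 and limma-voom were tested on simulated data.

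Members and lists were chosen with earlier results of these data known. Named genes are the 10 members, PER3, CRY2, ARNTL2, THRA and IRAK4, plus up to 8 network genes past the threshold with the largest change. IRAK4 itself was at a log2 value of -0.16 (SE 0.43, adjusted p = 0.88 by edgeR). Start sequences are RefSeq's, GRCh38.p14, a build other than that of the files, and they matched all 10 members by gene ID. Of the network list 1 gene was not analysed here, and a few further genes are not reported here.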

Additional observations from a re-analysis of the deposited data

How the results depend on the processing

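The median log2 fold change of the 6 output genes lay between -0.70 and -0.56 over the 13 alternatives that gave one, and that of the activators between 0.02 and 0.17 over 14. In each, the activator median was the value of ARNTL, while NPAS2 was negative. TEF was under a mean count of 50, so that filter gave no output median. The number of genes past the threshold was 434 of 11216 (3.87%), and 831 of 15625 (5.32%) with no filter. It was 2606 (23.2%) with library quality weights, and 99 to 2496 (0.87% to 21.9%) with 1 library left out. For the clock members it was 3, with 5 under quality weights and 1 to 5 with 1 library left out, 5 being the value without DMSO 3. For the other clock network genes it was 2, with 8 under quality weights and 1 to 9 with 1 library left out, 9 being the value without DMSO 3. With library totals only, NPAS2 was lost at -0.41, leaving 2 members, and 499 of all genes passed. With no filter, NR1D2 was added at -0.54, making 4 members among the 831 genes. The cause was not tested.

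Replicate numbers gave no sign of pairing, as same-numbered libraries had correlations of -0.08, -0.04 and -0.12 between their deviations from the group means. No library correlated best with its own number, and the highest correlation was 0.16, between inhibitor 3 and DMSO 1. With a replicate block NR1D1 and PER1 remained past the threshold, 2 of the 10, and NPAS2 was lost at -0.46, when 327 of all genes passed. Of the network genes 2 passed, TSC22D3 among them. Depth limits DBP, TEF, PER2 and CRY1, which had under 100 counts in every library. PER1 was also thinly counted, with 55 to 81 counts in the inhibitor libraries and 91 to 197 in the DMSO libraries.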
